A study of Homo sapiens with 18 samples.

Results

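The comparison described here is the induction of p53 in the presence of a compound meant to bring the acetyltransferases PCAF and GCN5 to it. H1299 cells come from a human non-small cell lung carcinoma and make no p53 protein of their own. The induced cells carry a wild-type p53 joined to the tag FKBP12F36V and an HA epitope, switched on with doxycycline, and were kept for 24 h with AceTAGPCAFGCN5-4, here the PCAF/GCN5 compound. The non-induced cells, which the labels name only as H1299, received the same compound for the same time. Members were taken by these 2 labels, which gives 3 induced and 3 non-induced libraries, 6 of the 18 in the series. The other 12 libraries are induced and non-induced H1299 cells with DMSO, the solvent control, or with AceTAGp300CBP-1, here the p300/CBP compound, again for 24 h and with 3 libraries a group. The labels give the genotype of every library as wt and name no clone and no dose of either compound. One treatment text, which names doxycycline, stands for all 18 libraries, so the labels do not say whether the non-induced cells carried the construct or went without doxycycline. Effects of the tagged p53 and of doxycycline itself therefore cannot be told apart, and because both of its sides hold the compound it does not measure what the compound does by itself. The labels do not say whether the replicates were separate cultures, so p-values measure only the spread between these samples, which may be technical.

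p53 is a transcription factor that binds response elements in DNA as a tetramer and switches on genes of cell cycle arrest, cell death, DNA repair and metabolism. One of its targets, the kinase inhibitor p21 encoded by CDKN1A, keeps the RB family proteins and the DREAM complex on the promoters of S phase and mitotic genes, which are then expressed less. PCAF, encoded by KAT2B, and GCN5, encoded by KAT2A, are paralogous lysine acetyltransferases that work in the SAGA and ATAC complexes and also acetylate p53 itself. An AceTAG is a molecule with 2 binding ends, 1 for FKBP12F36V and 1 for an acetyltransferase, designed to bring the enzyme to whatever protein carries the tag.

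Library totals ran from 19831884 to 29168080 counts in these 6 libraries, and from 9056382 to 29168080 over the series. Levels are given as CPM, counts scaled to a library total of 1000000, and 3 counts, the most that a count of 0 allows, are 0.103 to 0.151 CPM in these libraries. On the axis of largest variance among the 6 libraries, which held 57.0% of it, the induced libraries scored 24.4 to 34.99 and the non-induced ones -30.4 to -29.0. On the next axis, which held 14.6%, the second induced library stood apart at -25.7 where the other induced libraries scored 11.6 and 17.2. Mitochondrially encoded transcripts made up 1.32% to 2.45% of counts, with overlapping ranges in both groups. Leukocyte markers summed to at most 0.743 CPM in any of the 6 libraries, fibroblast markers to at most 2.42 CPM and endothelial markers to at most 37.3 CPM, and PTPRC, CD3E, CDH5 and POSTN had no count. Of the 14 markers for a lung or epithelial line, SFTPC, the surfactant gene of alveolar cells, had no count in any of the 6 libraries, and 8 were high enough to be tested. These markers summed to 3704 to 4294 CPM without induction and 2958 to 3219 CPM with it, and their part in the results was not tested.

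Across the transcriptome 15237 genes were tested, of which 1735 rose (11.4%) and 1911 fell (12.5%), with an adjusted p below 0.05. Together that is 23.9% of the genes, and their overall median log2 change was 0.0019. Rises reached further than falls: 315 genes rose and 209 fell by more than 2-fold. Without the second induced library, which stood apart, 3269 genes were called instead of 3646, 1581 higher and 1688 lower. In bulk RNA more or fewer cells expressing a gene and more or less RNA per cell cannot be told apart, here and for every gene that follows. Changes of single genes are given on the log2 scale as the estimate ± SE.

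**Figure D1:**
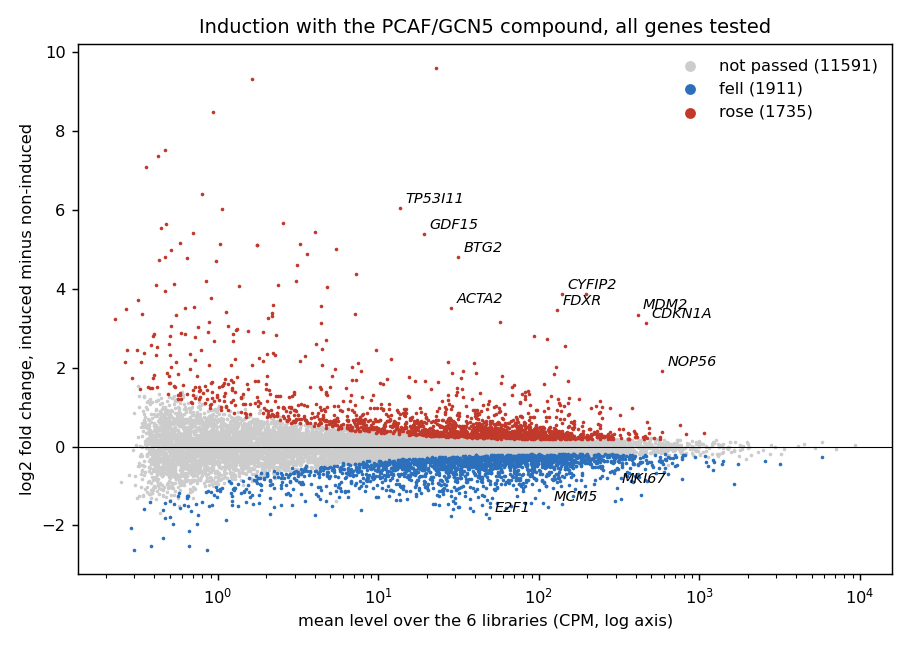
Each point is 1 of the 15237 tested genes, with its mean level over the 6 libraries in CPM on a log axis and its log2 fold change, induced minus non-induced, with the PCAF/GCN5 compound. Red points rose (1735), blue points fell (1911), with TP53I11 at 6.04 and GDF15 at 5.39 among the high red points.

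The genes with the largest rises, among those that reached 5 CPM and did not overlap between groups, and leaving out antisense, LINC and clone-named transcripts, were TP53I11, PTCHD4, ADAMTS7, GDF15, PLXNB3, C1orf220, NSG1 and BTG2. TP53I11, a p53-induced gene, had 13, 10 and 7 counts in the non-induced libraries and 800, 516 and 609 in the induced ones (6.04 ± 0.17 on the log2 scale, adjusted p = 2.3e-12). PTCHD4, which encodes a patched-domain membrane protein, had 3, 1 and 3 counts against 149, 97 and 113. ADAMTS7, a secreted metalloprotease, had 3, 5 and 5 counts against 219, 148 and 192. For PTCHD4, ADAMTS7, PLXNB3 and NSG1 the non-induced level lies close to 3 counts, so the size of the rise is poorly known. RALGPS2-AS1, an antisense transcript described with its neighbours, had a larger rise than these 8. PLXNB3, a plexin receptor for semaphorins, rose from 0.170 ± 0.0232 to 6.30 ± 0.264 CPM (mean ± SD, n = 3), with 5, 4 and 4 non-induced counts. NSG1, a protein of endosomes in neurons, rose from 0.225 ± 0.0928 to 6.98 ± 1.74 CPM, with 5, 4 and 8 non-induced counts.

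Among the p53 targets that act in arrest and in the control of p53 itself, 21 of 22 listed genes passed the filter on low counts, of which 18 rose, 1 fell and 2 did not pass the test (median log2 fold change 1.10). CDKN1A was at 87.00, 92.6 and 97.9 CPM without induction and at 829, 806 and 859 CPM with it. The groups lay far apart, an 8.75-fold rise (3.13 ± 0.08, adjusted p = 9.9e-13). MDM2, the ubiquitin ligase that marks p53 for degradation, stood at 76.3, 70.1 and 69.3 CPM in non-induced libraries and 648, 776 and 833 CPM in induced ones. That is a 10.2-fold rise (3.35 ± 0.09, adjusted p = 1.5e-12), with the first induced library lowest. BTG2, an antiproliferative adaptor of mRNA deadenylation, went from 1.72, 2.25 and 2.34 CPM to 59.3, 59.6 and 62.3 CPM (4.80 ± 0.12, adjusted p = 9.9e-13). Its groups did not overlap.

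Smaller rises in the same list included the kinase PLK3 (1.87 ± 0.10), the stress-response sestrins SESN1 (1.87 ± 0.09) and SESN2 (1.30 ± 0.08), the RNA-binding protein ZMAT3 (1.56 ± 0.08), the growth-arrest protein GADD45A (0.99 ± 0.09) and the phosphatase PPM1D (0.92 ± 0.08), which takes phosphate off p53. CCNG1, a cyclin that recruits a phosphatase to MDM2, rose from 249 ± 10.5 to 507 ± 28.9 CPM. PHLDA3, which holds back AKT, had 3, 0 and 8 counts without induction and 35, 19 and 26 with it. The gene that fell was E2F7, itself a repressor of E2F-driven genes: its libraries held 32.3, 34.9 and 29.1 CPM before and 21.9, 23.5 and 20.9 CPM after (-0.58 ± 0.09, adjusted p = 3.6e-04). BTG1, a relative of BTG2, did not pass at 0.13 ± 0.08.

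**Figure D2:**
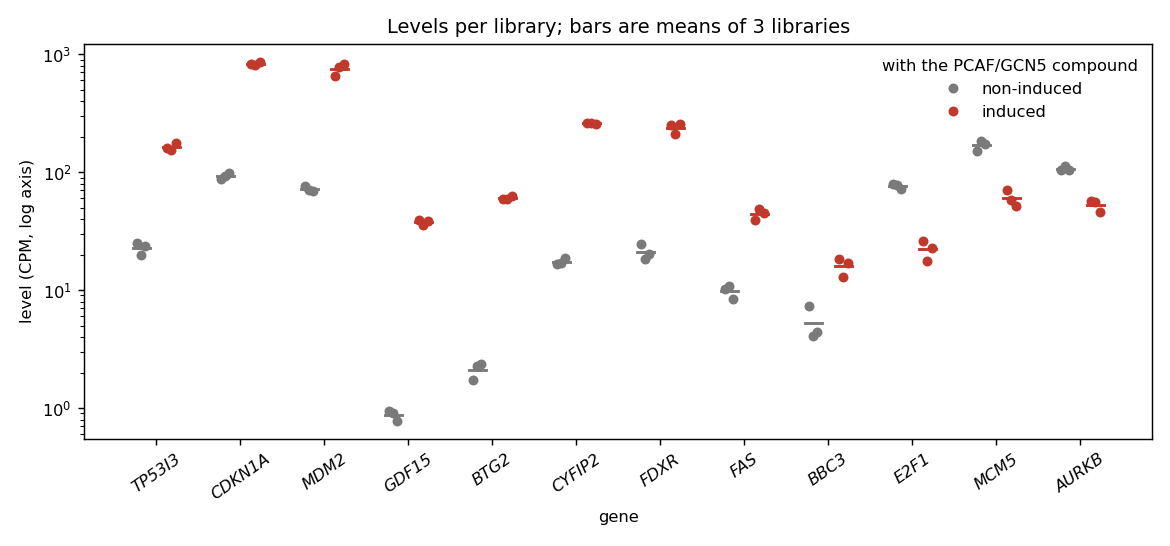
Each point is 1 library: the level of 12 genes in CPM on a log axis, grey for the 3 non-induced and red for the 3 induced libraries with the PCAF/GCN5 compound, with a bar at the mean of 3. The 12 genes are examples picked for display: 9 p53 targets, higher on induction, and E2F1, MCM5 and AURKB, lower.

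In the list of death and autophagy targets 24 of 27 genes passed the filter, and 23 rose while 1, the BH3 protein BID at 0.05 ± 0.10, did not pass (median 1.14). BAX, which opens the outer mitochondrial membrane, was at 59.3, 53.7 and 56.9 CPM in non-induced libraries and at 132, 96.4 and 130.4 CPM in induced ones (1.05 ± 0.10, adjusted p = 3.0e-06). Its second induced library was the lowest of the induced 3 and still above every non-induced one. BBC3, which encodes the BH3-only protein PUMA, stood at 7.31, 4.06 and 4.40 CPM and then at 18.4, 12.9 and 17.1 CPM (1.59 ± 0.19, adjusted p = 2.2e-05). PMAIP1, the related protein NOXA, rose by 0.80 ± 0.08 and APAF1, the scaffold of the apoptosome, by 0.83 ± 0.07.

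Receptors in this list rose as well. FAS was at 10.1, 10.7 and 8.46 CPM without induction and at 39.3, 49.1 and 45.1 CPM with it, a 4.42-fold rise (2.14 ± 0.11, adjusted p = 3.4e-09). The TRAIL receptors TNFRSF10A, TNFRSF10B and TNFRSF10D rose by 0.44 ± 0.08, 1.20 ± 0.07 and 1.32 ± 0.07. EDA2R, a receptor for ectodysplasin, had 13, 10 and 6 counts against 158, 63 and 58, with the first induced library well above the other induced ones. Among the remaining members CYFIP2, a partner of the WAVE actin complex, stood at 16.7, 16.9 and 18.5 CPM and 260.3, 263 and 258 CPM (3.87 ± 0.08, adjusted p = 1.2e-13). TP53I3, a quinone oxidoreductase, stood at 24.99, 20.02 and 23.4 CPM and 159.6, 153 and 178 CPM (2.81 ± 0.09, adjusted p = 1.0e-11). TP53INP1, which takes part in autophagy and in p53 phosphorylation, rose by 2.73 ± 0.11 and the lysosomal protein DRAM1 by 1.75 ± 0.09.

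All 25 listed targets of DNA repair and metabolism passed the filter, with 23 higher, 1 lower and 1 that did not pass (median 1.04). FDXR, the reductase that feeds electrons to mitochondrial cytochromes P450, stood at 24.7, 18.3 and 20.3 CPM without induction and at 250.2, 211 and 253 CPM with it (3.46 ± 0.10, adjusted p = 5.7e-12). GLS2, the p53-responsive glutaminase, went from 1.06, 1.39 and 0.904 CPM to 7.30, 6.56 and 7.21 CPM (2.61 ± 0.20, adjusted p = 2.1e-07). DDB2, which recognises ultraviolet lesions in DNA, went from 11.9, 16.8 and 12.7 CPM to 52.1, 54.3 and 54.7 CPM (1.92 ± 0.11, adjusted p = 1.7e-08). Each of the 3 had no overlap between groups. Other repair genes that rose were XPC (1.20 ± 0.07), the translesion polymerase POLH (1.16 ± 0.08) and RRM2B, the p53-controlled subunit of ribonucleotide reductase (1.04 ± 0.08). The lipid transporter ABCA12 had 0, 1 and 0 counts in non-induced libraries and 31, 43 and 34 in induced ones. SCO2, which assembles cytochrome c oxidase, was lower, at 10.3, 14.4 and 14.5 CPM and then 11.5, 8.12 and 8.01 CPM (-0.53 ± 0.17, adjusted p = 0.034). Its groups overlapped, and it lost the call in 5 of 12 alternatives, among them the fit without the second induced library.

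Of the 25 secreted and membrane targets 24 passed the filter, 18 rose and none fell (median 0.80). GDF15, a stress cytokine, stood at 0.938, 0.902 and 0.781 CPM and then at 39.2, 35.4 and 38.5 CPM, a 41.8-fold rise (5.39 ± 0.14, adjusted p = 9.9e-13). IGFBP3, which binds insulin-like growth factors outside the cell, went from 0.587, 0.789 and 0.534 CPM to 11.8, 17.6 and 12.3 CPM (4.39 ± 0.23, adjusted p = 3.2e-09), highest in the second induced library. PLTP, the phospholipid transfer protein, went from 14.7, 13.7 and 15.1 CPM to 68.4, 65.6 and 60.4 CPM (2.12 ± 0.09, adjusted p = 2.9e-10). KITLG, the ligand of the receptor KIT, rose by 1.31 ± 0.17, the growth factor TGFA by 0.60 ± 0.07 and the cytokine LIF by 0.62 ± 0.14. Members that did not pass included the ephrin receptor EPHA2 (265 ± 6.80 and 293 ± 21.4 CPM) and the ferrireductase STEAP3 (-0.22 ± 0.08, called as lower in 3 of 12 alternatives).

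Of 12 listed p53-linked long noncoding RNAs 10 were found in the files, 8 passed the filter and 5 rose (median 0.80). MIR34AHG, the host transcript of the p53-induced microRNA miR-34a, had 7, 0 and 0 counts in the non-induced libraries and 96, 55 and 95 in the induced ones (adjusted p = 7.0e-06). TP53TG1 went from 9.66, 9.99 and 9.08 CPM to 16.01, 20.4 and 20.95 CPM (0.95 ± 0.12, adjusted p = 2.9e-05). LINC00475 was at 0 in all non-induced libraries and had 16, 19 and 14 counts in the induced ones, which leaves its fold change undefined. NEAT1, the scaffold of nuclear paraspeckles, did not pass, at 85.6, 57.5 and 45.4 CPM and 80.9, 65.6 and 109.9 CPM, where the groups overlapped. Without the second induced library it passed (adjusted p = 0.032), as it did in 2 other alternatives. Over these 3 alternatives the adjusted p ran from 1.4e-05 to 0.032. TUG1 stood at 184 ± 9.78 and 189 ± 6.37 CPM.

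Joined, the 4 protein-coding p53 lists hold 99 genes, of which 94 passed the filter, 82 rose, 2 fell and 10 did not pass (median 1.04, against 0.0019 for all genes). The share that rose was 11.4% over all tested genes. The 5 that did not pass the filter were SERPINB5, TRIM22, SPATA18, TP53AIP1 and TNFRSF10C, where SERPINB5 had 10, 7 and 7 counts in induced libraries and none in the others, and TRIM22 had 14, 7 and 9 against 0, 0 and 2. Over the 12 alternatives the number that rose stayed between 79 and 84.

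Of the E2F and G1 regulators 19 of 31 fell, none rose and 12 did not pass (median -0.51). E2F1, an activator of genes needed for DNA synthesis, was at 78.9, 77.2 and 71.7 CPM without induction and at 26.2, 17.6 and 22.8 CPM with it (-1.80 ± 0.11, adjusted p = 2.9e-08). E2F2 was at 39.9, 45.9 and 44.05 CPM and then at 13.9, 13.6 and 11.6 CPM (-1.77 ± 0.10, adjusted p = 1.3e-08). These were the largest falls among genes that reached 5 CPM and did not overlap, followed by PALM3 (-1.74 ± 0.26), ZNF367 (-1.70 ± 0.10), FAM111B (-1.63 ± 0.13), RMI2 (-1.62 ± 0.17), XRCC2 (-1.58 ± 0.10) and TCF19 (-1.57 ± 0.08). PALM3, a paralemmin, was the gene among these 8 with the lowest level, at 6.21 ± 0.595 CPM without induction.

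Among the other members of that list the phosphatase CDC25A fell by 1.29 on the log2 scale, the S phase cyclin CCNE2 by 1.18, MYBL2 by 1.16 and FOXM1, the activator of mitotic genes, by 0.96. CCND1, the G1 cyclin D1, went from 759, 803 and 775 CPM to 511, 475 and 489 CPM (-0.70 ± 0.07, adjusted p = 2.7e-06). The repressors RB1 (0.14 ± 0.07), RBL2 (0.14 ± 0.06) and E2F4 (-0.04 ± 0.07), which make up RB and DREAM complexes, did not pass, while the RB relative RBL1 fell by 0.87.

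Against a background of 12.5% of all tested genes that fell, replication genes fell almost throughout. Of 49 listed, all passed the filter, 47 fell and 2 did not pass (median -1.07). MCM5, a subunit of the replicative helicase, was at 151, 184 and 172 CPM in non-induced libraries and 70.6, 58.2 and 51.4 CPM in induced ones (-1.53 ± 0.11, adjusted p = 1.2e-07). MCM10, which starts the helicase, was at 52.9, 58.7 and 53.6 CPM and 21.1, 19.4 and 17.1 CPM (-1.55 ± 0.10, adjusted p = 2.4e-08). All 6 subunits MCM2 to MCM7 fell, by between 0.97 (MCM6) and 1.53 (MCM5) on the log2 scale. Other large falls were the flap nuclease FEN1 (from 98.2 ± 6.77 to 35.7 ± 1.68 CPM), the loading factors CDC6 (-1.47 ± 0.09) and CDT1 (-1.44 ± 0.11), and the checkpoint adaptor CLSPN (-1.43 ± 0.07). The members that did not pass were PCNA, the sliding clamp and itself a p53 target, at 254, 272 and 249 CPM and then 278, 297 and 289.6 CPM (0.12 ± 0.07), and the ligase LIG1 (-0.10 ± 0.07).

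Recombination and Fanconi genes, which mend broken and crosslinked DNA, fell in 26 of 28 cases, with PALB2 (-0.25 ± 0.10) and FANCL (-0.07 ± 0.10) as the 2 that did not pass (median -1.03). XRCC2, a recombination mediator, was at 40.7, 46.9 and 42.3 CPM and then at 16.01, 13.97 and 14.5 CPM (-1.58 ± 0.10, adjusted p = 2.4e-08). BRCA1, which guides broken ends into recombination, went from 58.7, 65.9 and 58.4 CPM to 26.7, 27.6 and 26.2 CPM (-1.22 ± 0.08). The helicase BLM and its partner RMI2 fell by 1.48 and 1.62 on the log2 scale.

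Mitotic genes, many of them known targets of the DREAM complex, also fell. Of 48 listed, 47 passed the filter, 45 fell and 2, the spindle checkpoint protein BUB3 (-0.10 ± 0.06) and the midzone protein PRC1 (-0.75 ± 0.34), did not pass (median -0.77). PLK4, the kinase of centriole duplication, was at 33.2, 45.5 and 39.6 CPM and then at 17.9, 17.1 and 16.1 CPM (-1.25 ± 0.12, adjusted p = 1.5e-06). AURKB, the kinase of the chromosomal passenger complex, was at 104, 112 and 105 CPM and then at 56.5, 55.8 and 46.1 CPM (-1.05 ± 0.09, adjusted p = 4.0e-07). MKI67, the proliferation marker Ki-67, stood at 322, 469.6 and 430.0 CPM without induction, its first library lowest, and at 222, 208 and 177 CPM with it (-1.05 ± 0.12, adjusted p = 1.6e-05). At the small end were the securin PTTG1 (-0.41 ± 0.08), the cyclin CCNB1 (-0.53 ± 0.07) and the kinase PLK1 (-0.53 ± 0.07). Counts of 45 mitotic and 47 S phase genes that fell were the same in each of the 12 alternatives.

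**Figure D3:**
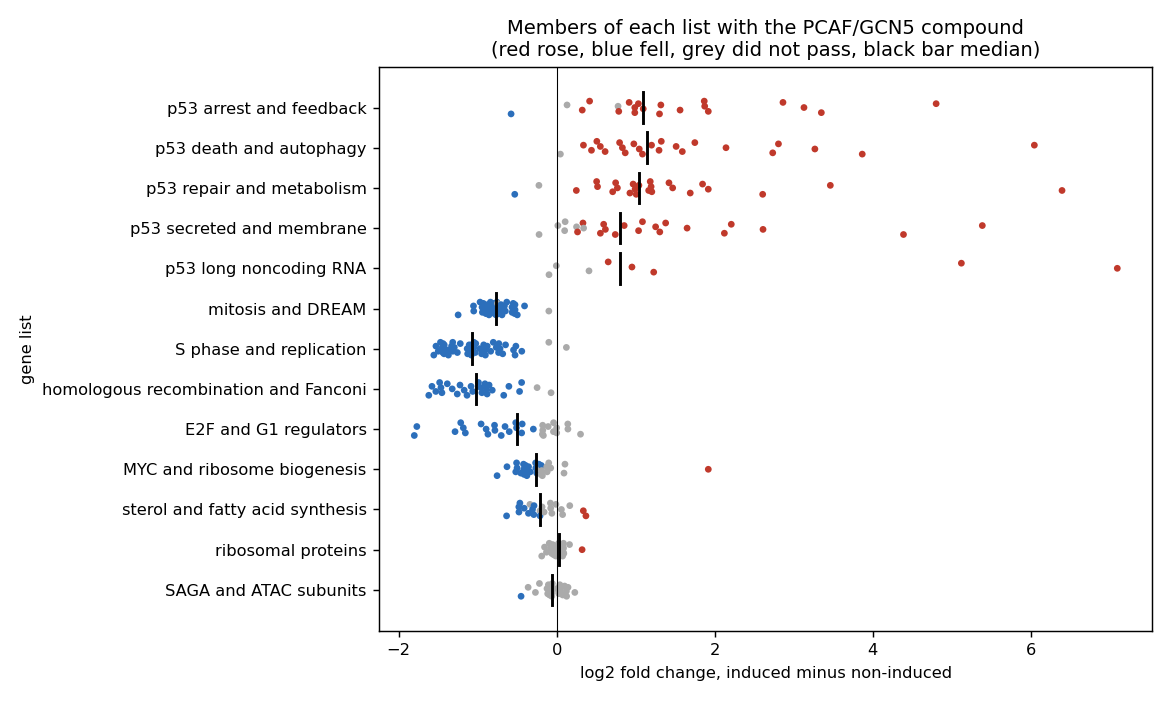
Each point is 1 measured gene of a list, with its log2 fold change, induced minus non-induced, with the PCAF/GCN5 compound. Red points rose, blue points fell, grey points did not pass, and the black bar is the median of the list, from 1.14 for death and autophagy targets to -1.07 for S phase genes.

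Promoter letters were counted for the lists in sequences from RefSeq (GRCh38.p14), over 250 bases before to 50 bases after each start. Promoters matched for 42 of the 48 mitotic genes and 43 of the 49 S phase genes. The core of the cell cycle homology region, TTTGAA on either strand, was found in 31 of the 42 mitotic promoters (73.8%), in 4.65% of S phase promoters and in 15.4% of all 27305 promoters in the table. Mitotic promoters are printed here for genes that fell and carry the core close to the start, with the core in capitals, written as TTCAAA where it lies on the other strand, and for KIF23 also an E2F core.

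KIF23 (chr15:69414274-69414334, plus strand): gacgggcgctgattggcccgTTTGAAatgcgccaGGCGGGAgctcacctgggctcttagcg
KIF11 (chr10:92593082-92593127, plus strand): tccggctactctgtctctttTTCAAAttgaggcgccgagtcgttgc
BUB1B (chr15:40161026-40161071, plus strand): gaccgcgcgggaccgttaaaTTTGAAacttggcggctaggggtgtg
ESPL1 (chr12:53268248-53268293, plus strand): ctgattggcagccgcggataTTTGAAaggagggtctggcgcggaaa
CDCA8 (chr1:37692473-37692518, plus strand): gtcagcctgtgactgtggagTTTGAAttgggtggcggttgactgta
CCNB2 (chr15:59105097-59105142, plus strand): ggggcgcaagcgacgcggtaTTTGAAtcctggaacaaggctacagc

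KIF23 and KIF11 are kinesins of the spindle, BUB1B is a spindle checkpoint kinase, ESPL1 is the protease separase, CDCA8 belongs to the passenger complex and CCNB2 is a mitotic cyclin. These genes changed by -0.93 ± 0.07, -0.89 ± 0.07, -0.86 ± 0.07, -0.84 ± 0.07, -0.78 ± 0.09 and -0.63 ± 0.09. The core lies within 55 bases before the start in each. An E2F core, GGCGGGA or GCGGGAA on either strand, was found in 62.8% of S phase promoters and 78.3% of the 23 matched recombination promoters, against 13 of the 42 mitotic promoters and 18.1% of all. The 2 E2F cores overlap where a promoter reads GGCGGGAA. S phase promoters with an E2F core close to the start are shown with the core in capitals.

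MCM10 (chr10:13161524-13161570, plus strand): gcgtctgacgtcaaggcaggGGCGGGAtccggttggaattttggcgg
CDC6 (chr17:40287834-40287880, plus strand): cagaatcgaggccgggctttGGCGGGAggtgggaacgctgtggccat
CDT1 (chr16:88803734-88803792, plus strand): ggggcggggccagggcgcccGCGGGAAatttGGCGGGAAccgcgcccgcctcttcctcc
GINS2 (chr16:85688959-85689006, minus strand): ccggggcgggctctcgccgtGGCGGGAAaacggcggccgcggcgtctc
CDC45 (chr22:19479878-19479924, plus strand): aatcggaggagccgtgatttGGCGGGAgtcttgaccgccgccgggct

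CDC45 and GINS2 encode parts of the active helicase, and changed by -1.13 ± 0.09 and -1.32 ± 0.09. A CCAAT box, the letters CCAAT on either strand, was found in 78.6% of mitotic and 53.5% of S phase promoters, against 35.7% of all. A p53 response element of 2 decamers, with a spacer of at most 13 bases and at most 2 mismatches, was found in the same window in 2 of the 80 matched promoters of p53 targets (2.5%) and in 1.47% of all. They belong to AEN, a nuclease of apoptosis that rose by 1.30 ± 0.10, and GLS2, where the match lies after the start. Both are shown with the match in capitals.

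AEN (chr15:88621286-88621345, plus strand): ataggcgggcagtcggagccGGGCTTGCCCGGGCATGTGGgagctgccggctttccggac
GLS2 (chr12:56488112-56488137, minus strand): gccggAGGCTTGCTGGGGCATGCGCt

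E2F cores were found in 40.0% of the promoters of p53 targets. These matches are letters in a window and do not show binding, and a window without a match says nothing about elements farther away.

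The acetyltransferases at which the compounds are aimed were measured in every library. KAT2B was at 81.4, 81.03 and 82.1 CPM without induction and at 133, 148 and 139 CPM with it (0.74 ± 0.07, adjusted p = 9.5e-07), with no overlap. KAT2A was at 41.96, 46.2 and 41.7 CPM and then at 38.3, 34.9 and 37.3 CPM (-0.27 ± 0.08, adjusted p = 0.027), and this fall lost the call in 5 of 12 alternatives (adjusted p = 0.051 to 0.143), the fit without the second induced library among them. EP300 and CREBBP, which encode p300 and CBP, did not pass (0.12 ± 0.07 and 0.13 ± 0.08), though without the second induced library CREBBP did (adjusted p = 0.030). Of the 16 acetyltransferases listed 3 rose and 2 fell, and besides KAT2B and KAT2A these were NCOA1 (0.29 ± 0.10, lost in 6 of 12 alternatives) and NCOA3 among the rises and HAT1 (-0.46 ± 0.07) among the falls. Over all tested genes 11.4% rose and 12.5% fell. The 3 rises and 2 falls lie near that share, which is no result about the acetyltransferases as a list. Of 25 SAGA and ATAC subunits 1 fell, the WD-repeat protein WDR5 (-0.45 ± 0.08), and 24 did not pass (median -0.06). Among 26 deacetylases and acetyl-lysine readers 1 rose, HDAC5 (0.28 ± 0.08, lost in 3 of 12 alternatives). FKBP1A, which encodes the cell's own FKBP12, stood at 206 ± 24.1 and 234 ± 11.00 CPM (0.15 ± 0.09, adjusted p = 0.24).

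The other lists are read against the 11.4% of all tested genes that rose and the 12.5% that fell. In the list of MYC targets and ribosome biogenesis 19 of 30 fell and 1 rose (median -0.26). NOP56, a core protein of box C/D small nucleolar RNPs, was the member that rose, from 226, 255 and 236 CPM to 957, 931 and 896 CPM (1.92 ± 0.08, adjusted p = 1.4e-10). MYC itself, in the immediate early list, was at 117, 166 and 145 CPM and then at 109, 107 and 92.7 CPM (-0.51 ± 0.11, adjusted p = 0.0031). Among the immediate early and AP-1 genes 5 rose and 8 fell of 27 measured. EGR1, a zinc finger factor of the growth and stress response, was at 69.3, 71.9 and 73.7 CPM and then at 228, 226 and 247 CPM (1.67 ± 0.07, adjusted p = 2.6e-10), and ATF3 rose by 1.09 ± 0.15. KLF6 fell from 82.8 ± 4.06 to 45.9 ± 1.20 CPM and FOSL1, an AP-1 subunit, from 286 ± 41.9 to 164 ± 16.5 CPM.

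Sterol and fatty acid genes fell in 10 of 23 cases and rose in 2 (median -0.21), among the falls the fatty acid synthase FASN (-0.48 ± 0.08) and the desaturase SCD (-0.48 ± 0.07). Of 13 measured genes of the senescence-linked list 7 fell and none rose (median -0.49). They included LMNB1, the lamin B1 of the nuclear envelope, at 237, 222 and 218 CPM and then 106, 115 and 108 CPM (-1.08 ± 0.06, adjusted p = 1.7e-08), and HMGB2 (-1.05 ± 0.07). IL6, CXCL8 and MMP3 of this list were too low to be tested. In the contractile and matrix list 4 rose and 6 fell of 23, with ACTA2, smooth muscle actin, at 3.36, 4.81 and 5.22 CPM and then 50.6, 50.9 and 55.6 CPM (3.51 ± 0.13, adjusted p = 9.9e-11) and TGFB2, a ligand of the TGF-beta receptors, lower by 0.99.

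The ATF4 and unfolded protein list had 7 rises and 2 falls among 28, with TRIB3 (1.01 ± 0.09) and DDIT3, which encodes CHOP (0.92 ± 0.12), highest. Interferon genes rose in 4 and fell in 2 of 16 cases, with OAS3 at -0.70 ± 0.09 and IRF1 at 0.51 ± 0.09. NF-kB genes rose in 2 and fell in 4 of 10 cases, with the caspase inhibitor BIRC3 at -0.75 ± 0.07 and NFKB1 at 0.39 ± 0.07. Histone genes rose in 5 and fell in 4 of 19 cases, with the damage-marking variant H2AX at -1.01 ± 0.09 and H2BC21 at 1.03 ± 0.19, though many histone genes are close copies whose reads the counting could split. Of 30 ribosomal protein genes 1 rose (RPS19, 0.32 ± 0.07) and 29 did not pass (median 0.03). Of 27 genes of oxidative phosphorylation 4 rose, with UQCRFS1 of complex III highest (0.81 ± 0.07), and 23 did not pass (median 0.06). Those rises lie near the 11.4% over all tested genes, which is no result about that list. Hypoxia genes (3 higher and 4 lower of 26), heat shock genes (2 and 3 of 15), NRF2 and iron genes (3 and 3 of 19) and immunophilins (1 and 2 of 13) lay near the share over all genes, which is no result about these lists. Of the 15 mitochondrially encoded genes 1 fell, MT-ATP8, a call lost in 7 of 12 alternatives (adjusted p up to 0.152). VIM, vimentin, and KRT18 were the lung or epithelial markers that fell (-0.43 ± 0.08 and -0.36 ± 0.07).

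Some rises lay next to each other on a chromosome. On chromosome 1, between 178090677 and 178921841 in the positions of the files, which match GRCh38, 6 neighbouring tested genes rose by more than 1 on the log2 scale: RASAL2-AS1, RASAL2, C1orf220, ENSG00000273384, RALGPS2-AS1 and RALGPS2. RALGPS2, an exchange factor for RAL GTPases, rose from 11.1 ± 1.55 to 102.6 ± 7.06 CPM (3.17 ± 0.10). RALGPS2-AS1, on the opposite strand, had 0, 3 and 1 counts without induction and 1428, 695 and 1177 with it. Its position overlaps RALGPS2, and whether the counting used strand is not given in the sources used here, so reads of the pair cannot be told apart. RASAL2, an inhibitor of RAS, rose from 46.7 ± 3.38 to 105.2 ± 7.08 CPM. On chromosome 12, MDM2 rose together with ENSG00000256325 and ENSG00000257181, transcripts that lie within its position at 68808177 to 68850686 and had at most 6 counts in a non-induced library. Because their positions overlap MDM2, reads counted for these transcripts may be reads of MDM2.

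Induction was next set beside the same contrast with DMSO, which asks whether the compound went with another response to p53. With DMSO 905 genes rose (6.01%) and 1170 fell (7.77%) of 15056 tested. Of the genes that rose with the PCAF/GCN5 compound, 676 also rose with DMSO, which is 39.0% of the former and 74.7% of the latter. Of those that fell 959 were shared, 50.2% and 82.0%, and no gene was called in opposite directions. A further 1059 genes were called as higher only in the fit with the compound, and for 2 of them the difference itself passed. Of 952 genes called as lower only there, none did. The third induced DMSO library had 0.714% mitochondrially encoded counts, the lowest of the series, and without it 5002 genes were called with DMSO, above the 3646 called with the PCAF/GCN5 compound. The shallowest library was the third of non-induced DMSO, and 1012 were called when it was left out. The counts of the 2 contrasts therefore cannot be ranked.

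The test of the difference, over 4 groups and 12 libraries, called 10 of 15814 genes as rising more with the PCAF/GCN5 compound than with DMSO (0.0632%) and 1 as rising less (0.00632%), 0.0696% in all, with 1148 genes at an unadjusted p below 0.05. These counts depend on the processing: with no filter on low counts 72 genes were called higher and 186 lower, which turns the balance, DESeq2 called 49 (48 higher), and leaving out 1 library gave 8 to 24, with 24 without the third induced DMSO library and 18 without the first. Among the 10 were IGFBP3, TP53I11, VCAN, PLTP, CDKN1A, TP53I3, ZMAT3, POLH and CYFIP2. Of the 10, 8 belong to the protein-coding p53 lists, which hold 95 of the 15814 genes tested. The lists were chosen with earlier results of these data known, so counts of their members among such genes are no independent support. CDKN1A was at 91.3, 91.8 and 85.7 CPM in non-induced and 380.4, 332 and 343 CPM in induced DMSO libraries, and rose by 1.95 ± 0.07 there against 3.13 ± 0.08 with the compound (difference 1.17 ± 0.10, adjusted p = 2.7e-05). All 3 induced libraries with the compound lay above all induced DMSO libraries, while the non-induced levels overlapped. IGFBP3 was at 1.25, 0.780 and 0.331 CPM and 0.482, 1.20 and 0.339 CPM with DMSO, where it did not pass (-0.41 ± 0.54, adjusted p = 0.67). Its difference was 4.83 ± 0.57 (adjusted p = 0.0012).

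PLTP stood at 26.1, 26.7 and 23.96 CPM in induced DMSO libraries, below the 60.4 to 68.4 CPM reached with the compound (difference 1.40 ± 0.12, adjusted p = 2.7e-05). TP53I3 stood at 84.3, 76.7 and 74.1 CPM there (difference 0.91 ± 0.12, adjusted p = 0.0031). The differences for CYFIP2, ZMAT3 and POLH were 0.79 ± 0.10, 0.87 ± 0.11 and 0.85 ± 0.12. TP53I11 reached 26.8 ± 0.74 and 3.44 ± 0.16 CPM (difference 2.69 ± 0.41, adjusted p = 0.012), a call lost without the second or the third non-induced DMSO library (adjusted p = 0.359 and 0.054). VCAN, the matrix proteoglycan versican, had a difference of 2.12 ± 0.35 and lost the call in 9 of 16 alternatives, each of them a fit without 1 library. ANGPTL4, an inhibitor of lipoprotein lipase, was the gene that rose less: it stood at 45.9, 42.00 and 41.01 CPM and 73.2, 64.9 and 66.5 CPM with the compound and at 39.8, 37.9 and 34.6 CPM and 138, 139.6 and 165 CPM with DMSO (difference -1.32 ± 0.12, adjusted p = 7.9e-05).

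Over the 4 protein-coding p53 lists the median log2 rise was 1.04 with the compound and 0.69 with DMSO, where 64 of 93 measured genes rose. Because the lists were chosen with earlier results of these data known, their medians are no independent support either. The median difference was 0.29 on the log2 scale, against -0.0094 for all genes tested, and the difference passed for 8 of the members, all higher. For MDM2 (0.28 ± 0.11), BAX (0.16 ± 0.15), BBC3 (-0.17 ± 0.28), GDF15 (0.24 ± 0.38) and FDXR (0.11 ± 0.26) it did not pass. The S phase and mitotic medians were -1.07 and -0.77 with the compound and -0.89 and -0.80 with DMSO, and no member of either list passed the test of the difference from DMSO.

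**Figure D4:**
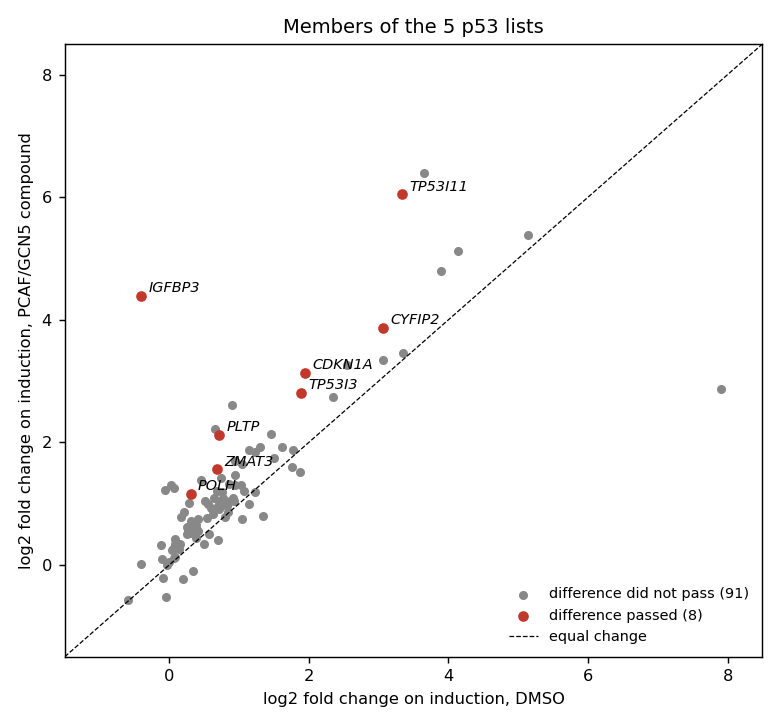
Each point is 1 of the 99 genes of the 5 p53 lists, long noncoding RNAs included, that were tested with both DMSO and the compound, with its log2 fold change on induction with DMSO on the x axis and with the PCAF/GCN5 compound on the y axis. The dashed line marks equal change, and the 8 red points passed the test of the difference and all lie above it, IGFBP3 farthest.

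With the p300/CBP compound, the p53 targets whose induction differed rose more than with the PCAF/GCN5 compound. There 2433 genes rose (16.4%) and 2411 fell (16.2%) of 14844 tested, 32.6% in all, and 1335 of the rises were shared with the PCAF/GCN5 compound (76.9% and 54.9%). The labels give no dose for either compound, so their effects cannot be compared at matched doses. The test of the difference called 11 of 15656 genes as higher with the PCAF/GCN5 compound (0.0703%) and 40 as lower (0.255%), 0.326% in all, with 1314 at an unadjusted p below 0.05. With no filter 42 were called higher and 139 lower, and with DESeq2 36 and 73. In the protein-coding p53 lists, chosen with earlier results known and so no independent support, 13 members were called lower and none higher (median -0.18, against 0.0053 for all genes). This test and the one against DMSO share the 6 libraries with the PCAF/GCN5 compound.

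CDKN1A reached 2332, 2451 and 2385 CPM in the induced libraries with the p300/CBP compound, above every library with the PCAF/GCN5 compound (difference -1.36 ± 0.09, adjusted p = 1.2e-08). TP53I3 reached 630.2, 635 and 633 CPM (difference -1.63 ± 0.10, adjusted p = 1.2e-08). FAS reached 74.5, 80.1 and 78.6 CPM (difference -0.93 ± 0.15, adjusted p = 0.0032), and PLTP differed by -0.85 ± 0.11 (adjusted p = 2.6e-04). TP53I11 reached 91.9, 99.97 and 99.7 CPM (difference -1.89 ± 0.40, adjusted p = 0.045), a call lost in 12 of 16 alternatives. IGFBP3 stood at 15.7, 14.2 and 14.2 CPM, a difference of -0.10 ± 0.42 that did not pass, and the difference for MDM2 was 0.07 ± 0.10.

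DPYSL4, a p53 target of the dihydropyrimidinase family, stood at 15.6, 15.2 and 17.97 CPM with the PCAF/GCN5 compound and at 52.7, 58.2 and 51.6 CPM with the other (difference -2.24 ± 0.28, adjusted p = 2.3e-04). SAC3D1, which acts at the centrosome, did not pass on induction with the PCAF/GCN5 compound (0.15 ± 0.10) and rose by 1.86 ± 0.09 with the p300/CBP compound (difference -1.71 ± 0.14, adjusted p = 1.2e-06). FAM43A rose by 0.47 ± 0.15 with the PCAF/GCN5 compound, a call lost in 3 of 12 alternatives, and by 2.38 ± 0.11 with the p300/CBP compound (difference -1.90 ± 0.17, adjusted p = 2.2e-06). Among genes with the opposite difference, SCD, the transcription factor SOX9 and RPLP2, a ribosomal stalk protein, changed by -0.48 ± 0.07, -0.47 ± 0.06 and 0.09 ± 0.07, against -0.96 ± 0.05, -0.93 ± 0.06 and -0.44 ± 0.04. The difference calls for SCD and SOX9 were each lost in 3 of 16 alternatives, all of them fits without 1 library.

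**Figure D5:**
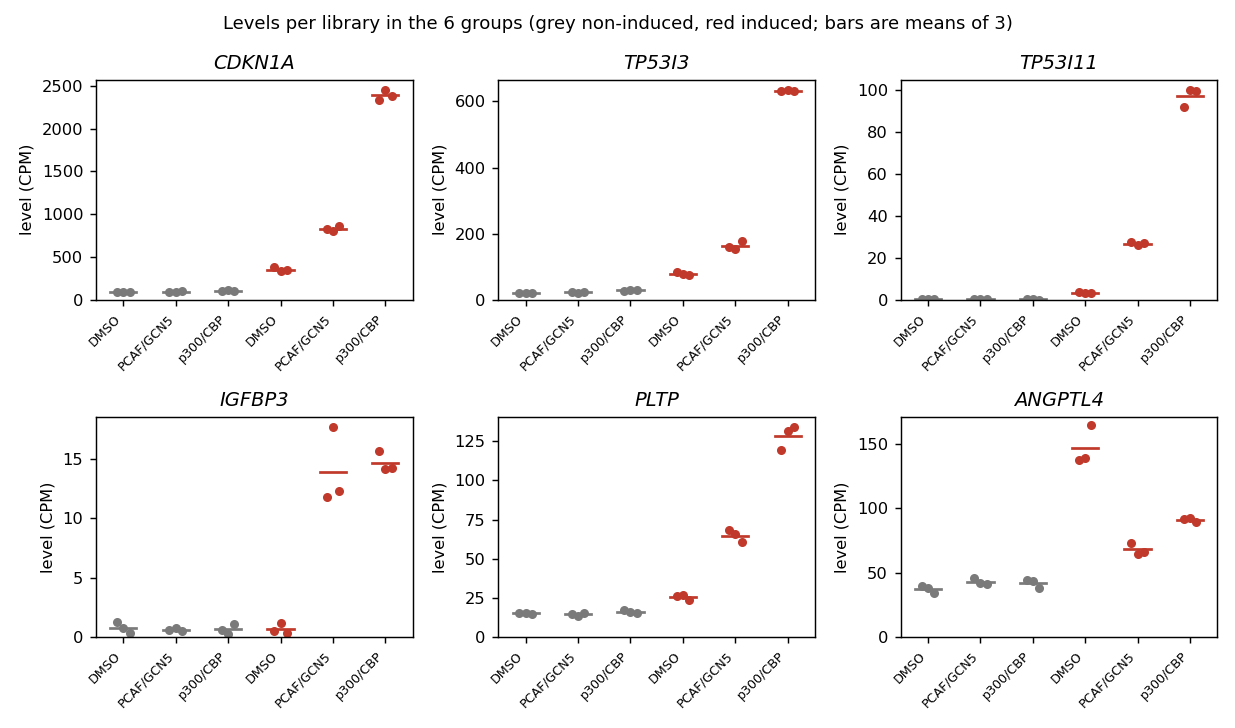
Each panel gives the level of 1 gene in CPM in all 18 libraries, grey for non-induced and red for induced cells, ordered as DMSO, PCAF/GCN5 compound and p300/CBP compound within each state, with a bar at the mean of 3 libraries. In CDKN1A, TP53I3, TP53I11 and PLTP the induced libraries with the PCAF/GCN5 compound lie between those with DMSO and those with the p300/CBP compound, in IGFBP3 they lie with the latter, and in ANGPTL4 they lie lowest of the induced groups.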

How the data were processed

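Total RNA of 18 H1299 libraries was sequenced after a directional library preparation, per the labels' protocols. The deposited values are raw counts per gene, whole numbers with no normalization, and StringTie and DESeq2 are named in the submitters' processing notes without versions. Aligner, counter, annotation and use of strand are not given in the sources used here. Positions match GRCh38: 46551 of the 58516 gene IDs also in GENCODE 29 (79.6%) have the same chromosome, start and end there. Tables were joined on 60623 genes, and symbols matched for 60295. Non-induced DMSO counts came from the table shared with the PCAF/GCN5 compound, and induced DMSO counts from the one shared with the p300/CBP compound.

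Induced minus non-induced libraries were compared with edgeR 4.0.16 (filterByExpr, TMM, quasi-likelihood test; limma 3.58.1, R 4.3.3). Every adjusted p is a Benjamini-Hochberg value over all genes tested, and an adjusted p below 0.05 was called. SE is the log2 fold change divided by the square root of F. Differences in induction between compounds were interaction terms over 12 libraries. The scripts were tested on simulated data. Alternatives were DESeq2 1.42.0, its size factors, other filters, a replicate block, all 6 groups in 1 fit, and leaving out each library in turn. The rule for named genes took fixed genes (among them CDKN1A, MDM2, BAX, BBC3, FAS, GDF15, KAT2A, KAT2B, EP300, CREBBP and FKBP1A), the 8 largest rises and 8 largest falls at 5 CPM or more without overlap and with no antisense, LINC or clone name, the 4 largest called changes of each list with up to 4 against its majority, up to 6 called genes in each direction of a difference test, and up to 5 abundant p53 list members that did not pass. Other list members are given as examples chosen after their values were seen, as are the neighbouring genes. Some genes are not reported here. The members and lists were chosen with earlier results of these data known. Same-numbered libraries did not deviate together (correlations of -0.058, 0.056 and -0.050), and the main fits did not pair them. With 3 libraries a group, these values cannot settle whether the numbers mark pairs.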

Additional observations from a re-analysis of the deposited data

Results flagged for a closer look

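Induction changed some genes differently in the 3 treatments, by the test of the difference over 4 groups in edgeR's quasi-likelihood fit. On the log2 scale, the rise with the PCAF/GCN5 compound exceeded that with DMSO by 1.17 for CDKN1A, 2.69 for TP53I11, 0.91 for TP53I3, 4.83 for IGFBP3, 2.12 for VCAN and 1.40 for PLTP. For ANGPTL4 the difference was -1.32. The calls for VCAN and TP53I11 were lost when single libraries were left out.

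Against the p300/CBP compound the differences were -1.89 for TP53I11, -1.63 for TP53I3, -2.24 for DPYSL4, -1.90 for FAM43A and -1.71 for SAC3D1. ANKRD20A11P, a pseudogene with near-identical copies whose reads may be split, differed by -3.11. Differences in the other direction were 0.49 for SCD, 0.65 for ABCD2, 0.54 for RPLP2, 0.47 for SOX9, 0.45 for SPRY4 and 0.44 for NT5E. The call for ABCD2, a peroxisomal transporter, was lost in 10 of 16 alternatives, that for TP53I11 in 12, those for SCD and SOX9 in 3 each and that for NT5E in 1. The cause of these differences was not tested.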

How the results depend on the processing

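Of 2065 recomputed values of named genes, 1923 kept their side of the threshold, 135 lost the call and 7 gained it. None reversed direction where the gene was called in the main fit or in the alternative. Direction was not checked where neither called it. The number called on induction with the PCAF/GCN5 compound was 3646, and 2623 to 3683 when 1 library was left out. The main fit did not pair libraries by number, and with the replicate block 3256 were called (1510 higher, 1746 lower). With DMSO 869 to 5002 genes were called when 1 library was left out, against 2075, and the cause was not tested. The difference from DMSO called 11 genes, but 49 with DESeq2 (48 higher) and 258 with no filter on low counts (72 higher, 186 lower), 12 with the replicate block, and 8 to 24 without 1 library (7 to 23 higher). The difference from the p300/CBP compound called 51 genes, but 109 with DESeq2 (36 higher, 73 lower), 181 with no filter (42 higher, 139 lower), 45 with the replicate block (8 higher, 37 lower), and 34 to 58 without 1 library (4 to 17 higher, 30 to 48 lower). The cause was not tested. Genes near 3 counts, 0.103 to 0.151 CPM here, have poorly known fold changes, and 3 libraries a group limit every test.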
